A study of Mus musculus with 2 samples.

Results

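Dense distal clusters of open chromatin were described in a DNase-seq library from mouse thymus. A peak of the replicate 2-labelled library was distal when it lay over 1 kb from every annotated transcript start. Distal peaks were joined when the gap between neighbours was at most 12500 bp, and groups of at least 5 peaks were kept. This gave 950 clusters, which held 7054 of the 34595 distal peaks (20.4%) and 24.5% of the distal signal, out of 60644 peaks in all. The members were thus chosen by the positions of the peaks of that library, and they were ranked by its summed signal. The peaks of the replicate 1-labelled library, which the choice did not use, were then counted in each.

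DNase-seq marks DNA that nuclease can reach, as at promoters, enhancers and insulators, where bound proteins displace nucleosomes. Many such elements crowded into a short stretch are a common feature of genes that define a cell type, and groups of enhancers of this kind are called stretch enhancers or super-enhancers when histone marks are used to find them. In thymus the bulk of the cells are thymocytes, in which TCF1, GATA3, RUNX, ETS and E proteins act at the distal elements of the T cell receptor, coreceptor and signalling genes. A peak list shows where chromatin is open, not which gene an element acts on.

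The mice behind both libraries were B6CASTF1/J males, 36 day old, with thymus as the tissue. They were F1 hybrids of C57BL/6J and CAST/EiJ, and no treatment is given. The libraries are labelled biological replicates 1 and 2 and their descriptions number different males, but they carry 1 donor identifier. With 1 library that defines the clusters and 1 set beside it, no test was possible. The 95% Wilson intervals below cover the counting of peaks only, and the sequencing depth is unknown.

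The replicate 1-labelled library stood apart from its tissue label. Of 16 T cell receptor and coreceptor genes, 13 had a promoter peak in the replicate 2-labelled library (summed signal 68.7) and 3 in the replicate 1-labelled library (summed signal 1.98). Of 19 pancreas acinar genes, 5 had one in the replicate 2-labelled library (summed signal 12.9) and 19 in the replicate 1-labelled library (summed signal 98.9). Of all 21972 genes, 59.97% had one in the replicate 2-labelled library and 63.0% in the replicate 1-labelled library. The contrast was smaller for 24 T lineage transcription factor genes, with 24 (summed signal 210.1) and 22 (summed signal 84.6). All 12 housekeeping genes had one in both libraries, with summed signals of 185.1 and 82.6 in the same order. Of 15 thymic epithelium genes, 7 had one in the replicate 2-labelled library (summed signal 33.3) and 9 in the replicate 1-labelled library (summed signal 31.6), with Foxn1, Krt5 and Krt14 among those with none in either. Every count of replicate 1 peaks below stands beside this difference, whose part in the results was not tested. In bulk tissue, fewer cells of a type and less open chromatin per cell cannot be told apart.

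Sequences of the strongest distal peak are given for 5 clusters that span the range of what the replicate 1-labelled library held: those at Tcf7, at Cd8a and at Trac, the highest-ranked cluster with no replicate 1 peak, and the highest-ranked cluster whose every peak was overlapped. They are from the plus strand of GRCm38 (mm10), the C57BL/6J reference and not the CAST/EiJ allele, as held in RefSeq. Capitals mark bases inside the deposited footprints of the replicate 2-labelled library, which are short protected stretches within open chromatin.
Tcf7 cluster, chr11:52314091-52314390: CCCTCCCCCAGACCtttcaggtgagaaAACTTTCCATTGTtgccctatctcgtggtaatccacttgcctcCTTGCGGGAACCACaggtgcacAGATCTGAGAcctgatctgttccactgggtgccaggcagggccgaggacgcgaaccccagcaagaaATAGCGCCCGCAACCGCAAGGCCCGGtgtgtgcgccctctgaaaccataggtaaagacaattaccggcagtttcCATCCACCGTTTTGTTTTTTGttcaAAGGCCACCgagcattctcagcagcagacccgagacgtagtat
Cd8a cluster, chr6:71302421-71302640: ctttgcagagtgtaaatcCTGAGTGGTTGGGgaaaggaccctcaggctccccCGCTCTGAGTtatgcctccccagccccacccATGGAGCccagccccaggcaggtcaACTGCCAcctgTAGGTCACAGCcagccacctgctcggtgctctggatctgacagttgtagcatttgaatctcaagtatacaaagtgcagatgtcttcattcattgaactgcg
Trac cluster, chr14:54239141-54239300: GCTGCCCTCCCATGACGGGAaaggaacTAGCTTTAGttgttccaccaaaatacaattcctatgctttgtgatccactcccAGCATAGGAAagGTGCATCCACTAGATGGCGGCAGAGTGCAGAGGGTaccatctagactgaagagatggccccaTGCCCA
Cluster 22, chr12:107157141-107157320: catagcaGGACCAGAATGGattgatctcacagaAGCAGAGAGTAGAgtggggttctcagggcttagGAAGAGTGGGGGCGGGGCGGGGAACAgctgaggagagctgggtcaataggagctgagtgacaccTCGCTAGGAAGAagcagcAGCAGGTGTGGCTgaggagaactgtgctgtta
Cluster 21, chr11:69040941-69041140: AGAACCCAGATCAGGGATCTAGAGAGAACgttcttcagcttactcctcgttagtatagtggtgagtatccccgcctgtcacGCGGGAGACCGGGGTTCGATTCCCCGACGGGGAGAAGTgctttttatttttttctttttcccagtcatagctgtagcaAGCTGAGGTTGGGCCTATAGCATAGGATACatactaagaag

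The Tcf7 peak lies between genes, had a signal of 10.8 and 7 footprints in the replicate 2-labelled library, and had neither a peak nor a footprint in the replicate 1-labelled library. The run shown is the central 300 of its 320 bp. It holds the RUNX letters TGTGGTT at bases 79 to 85, read on the minus strand, with 6 of those bases in a footprint, and the TCF/LEF letters TCAAAG at bases 255 to 260. These overlap letters of other motifs, CAGGTG at bases 84 to 89 and those of HNF4 at bases 256 to 264. CAGGTG also stands at bases 18 to 23, outside the footprints. The Cd8a cluster's peak lies in an exon of the long noncoding RNA gene Gm1070, inside the body of Smyd1, and its signal of 6.93 also came with no replicate 1 peak. It holds the ROR letters AGGTCA at bases 103 to 108, outside the footprints, and at bases 121 to 126, wholly in one. It also holds the E protein letters CAGGTG, read on the minus strand, at bases 114 to 119 and 135 to 140, neither wholly in a footprint. The Trac cluster's peak lies in an intron of Dad1 and was found in both libraries, with a signal of 13.9 in the replicate 2-labelled library and 4.51 in the replicate 1-labelled library. None of the 17 motifs searched had an exact match within the Trac peak. A run wholly in a footprint came close to the letters searched for CTCF, the insulator protein, without matching them exactly. The search missed sites with other letters, so it cannot tell whether this peak lacks a CTCF site. The peak of cluster 22 lies in an intron of the long noncoding RNA gene Gm16084, with a signal of 5.46 and no replicate 1 peak. This cluster 22 peak holds the SP/KLF letters GGGCGG at bases 76 to 81 and again at bases 81 to 86. Its E protein letters are CAGCTG at bases 91 to 96, partly in a footprint, and CAGGTG at bases 151 to 156, wholly in one. The cluster 21 peak lies within 1 kb of a tRNA gene and had a signal of 9.75 in the replicate 2-labelled library and 6.63 in the replicate 1-labelled library, with 3 footprints in each. Its matches, Ikaros at bases 139 to 144 and IRF at bases 132 to 141, lie outside the replicate 2 footprints. These matches describe letters and are not evidence of binding.

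The clusters were mostly small. Peaks per cluster ran from 5 to 101 with a median of 6, spans from 1.94 to 99.2 kb with a median of 16.5 kb, and summed signals from 1.16 to 175.6 with a median of 14.1, in the deposited signal units. The spans added to 18.0 Mb, or 0.660% of the chromosomes, of which the peaks themselves covered 1.57 Mb. A cluster's strongest peak carried between 6.14% and 79.1% of its signal, with a median of 32.7%. The leading 20 clusters held 9.43% of the summed signal of all clusters, and the leading 100 held 28.5%. The rule's threshold of 5 peaks cuts a continuous series: the 354 groups of exactly 5 had a median summed signal of 9.98 over 13.8 kb, and the 737 groups of 4 just outside it had 7.55 over 10.8 kb.

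**Figure D1:**
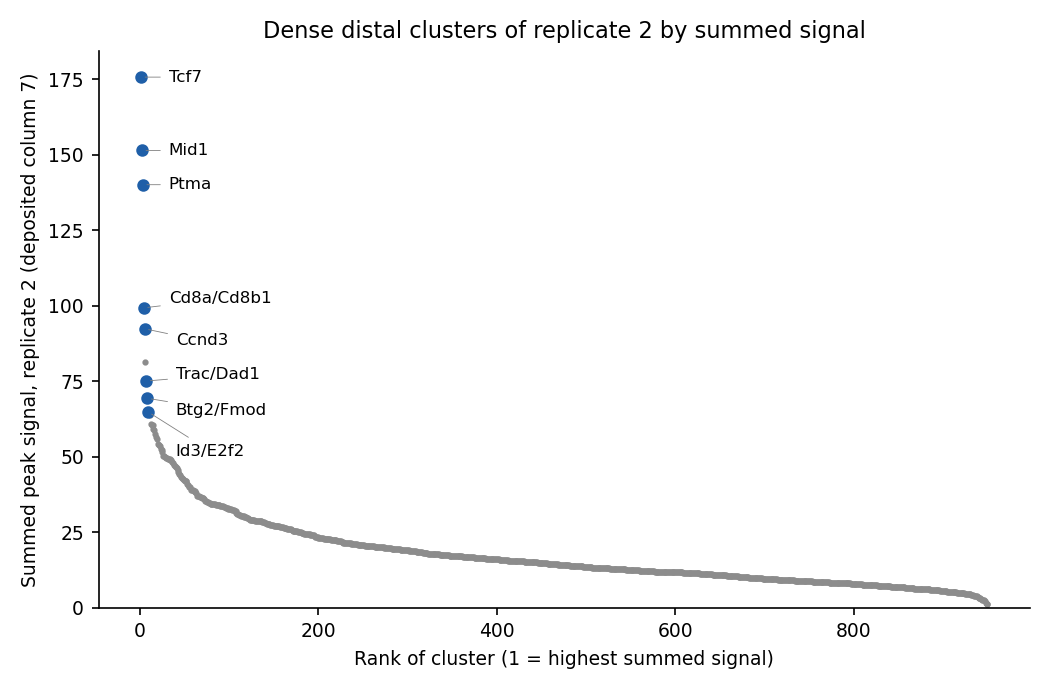
Summed deposited peak signal of each of the 950 clusters of the replicate 2-labelled library (vertical axis, deposited units) against its rank (horizontal axis). Each point is 1 cluster, and blue points are the named ones. Tcf7 leads with 175.6, Mid1 and Ptma follow with 151.4 and 140.0, and the median cluster has 14.1.

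Chromosome 11 held 112 of the clusters, 9.17 per 10 Mb, against 3.49 per 10 Mb over all chromosomes. Chromosome 17 followed with 5.90 per 10 Mb, and chromosome X held 13 clusters, 0.760 per 10 Mb. These densities stand beside chromosome length alone, and were not set against the number of all distal peaks per chromosome. A gene body was overlapped by 659 clusters, and 345 had a gene's start inside the span. The other 291 overlapped no gene body and lay a median of 25.01 kb from the nearest gene start, 36 of them over 100 kb away. By midpoint, 50.3% of cluster peaks were intronic, 8.42% exonic and 41.3% intergenic, against 49.1%, 7.49% and 43.4% of the other distal peaks.

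The cluster with the highest signal and the most peaks spanned Tcf7, which encodes the T lineage transcription factor TCF1, at chr11:52252008-52351220. It held 101 distal peaks of the replicate 2-labelled library, summing to 175.6, against 8 distal peaks of the replicate 1-labelled library, summing to 17.1. Of the 101 peaks, 7 were overlapped by a replicate 1 peak, 44 were intronic and 51 intergenic. The cluster peaks held 225 footprints in the replicate 2-labelled library and 18 in the replicate 1-labelled library. Its peaks ran from the gene body far into the sequence upstream, where the strongest peak, shown above, stood. In this cluster no single peak dominated: the strongest carried 6.14% of the signal, the lowest such share among the 950 clusters.

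The Cd8 cluster at chr6:71298861-71383074 ranked number 4. Cd8a and Cd8b1 encode the chains of the CD8 coreceptor, which binds MHC class I, and the muscle gene Smyd1 lies beside them. It held 61 distal peaks in the replicate 2-labelled library, with a summed signal of 99.3, and 1 in the replicate 1-labelled library, with a signal of 0.643. That 1 peak lay at the edge of the span inside Smyd1. Footprints numbered 142 in the replicate 2-labelled library and 2 in the replicate 1-labelled library, and the gene promoters showed the same contrast. The Cd8a promoter signal was 10.1 and that of Cd8b1 10.2 in the replicate 2-labelled library, against no peak at either in the replicate 1-labelled library.

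The Trac cluster at chr14:54221542-54239300 ranked number 7 and was the most tightly packed of the leading 20, with 15.8 peaks per 10 kb. Trac encodes the constant region of the T cell receptor alpha chain, and the receptor alpha enhancer is known to lie between it and Dad1. Its 28 peaks lay in 17.8 kb and covered 48.8% of the span, with a summed signal of 75.1. In the replicate 1-labelled library it held 3 distal peaks, summing to 10.5. The Id3 and E2f2 cluster ranked number 9, with 20 peaks in the replicate 2-labelled library and 7 distal peaks in the replicate 1-labelled library. Id3 encodes an inhibitor of E proteins, and E2f2 a cell cycle regulator.

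The other leading clusters lay at genes outside the T lineage lists. Ccnd3, which encodes cyclin D3, had 28 peaks (summed signal 92.4) against 3 replicate 1 distal peaks. Dgke, a diacylglycerol kinase gene, shared a cluster with Gm525 that had 36 peaks against 3. A cluster at Kcnn4, a calcium-activated potassium channel gene, and Smg9 had 21 against 5. Between the BH3-only gene Bmf and Srp14 lay 18 peaks against 5, and at Akna, an AT-hook gene, 15 against 4. These 5 spans held more replicate 2 than replicate 1 distal peaks. Each replicate 1 count still stood over the median of 2 per cluster.

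Other leading clusters were as dense or denser in the replicate 1-labelled library. Ptma, the prothymosin alpha gene, ranked number 3 with 13 peaks in the replicate 2-labelled library, summing to 140.0, and 18 distal peaks in the replicate 1-labelled library, summing to 94.1, and 11 of the 13 were overlapped. At Btg2, an antiproliferative gene, and Fmod, 19 peaks stood against 42, the most replicate 1 distal peaks of any cluster. Kdm6b, a histone demethylase gene, had 13 against 14. Dnajb12, an Hsp40 family gene, had 14 in each. These 4 spans were open in both libraries. In between stood Zfp36l2, an mRNA decay factor gene, and Thada with 36 against 19. Further leading clusters were those at Plxdc1, Arl5c and Cacnb1 (11 against 5), Agrp and Ripor1 (13 against 5) and Wipf2, Cdc6 and Rara (20 against 12). Of the leading 20 clusters, 15 had more distal peaks in the replicate 2-labelled library, 4 had fewer and 1 had equal numbers. The rule favours the first outcome, because replicate 2 peaks set the spans.

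In 3 of the leading 20 clusters, 9 of 496 peaks had a further copy in the genome with at least 90% identity over at least 80% of the peak. The cluster ranked number 2, at chrX:169990221-169999492 in Mid1, a gene at the pseudoautosomal boundary, was made of 7 peaks that all had copies, on chromosomes 9, X and Y. It had the highest mean signal of any cluster, 21.6, with 5 of its 7 peaks overlapped by replicate 1. At Igf2bp3, an RNA-binding protein gene ranked number 10, 1 copied peak carried 65.9% of the summed signal of 64.7, and 22.04 remained without it. The cluster at Wipf2, Cdc6 and Rara held 1 copied peak among 20. At Igf2bp3 the signal of the copied peak was 42.7 in the replicate 2-labelled library and 67.7 in the replicate 1-labelled library. The sources used here do not say how reads with several matches were placed, and the rank of these clusters rests on that.

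**Figure D2:**
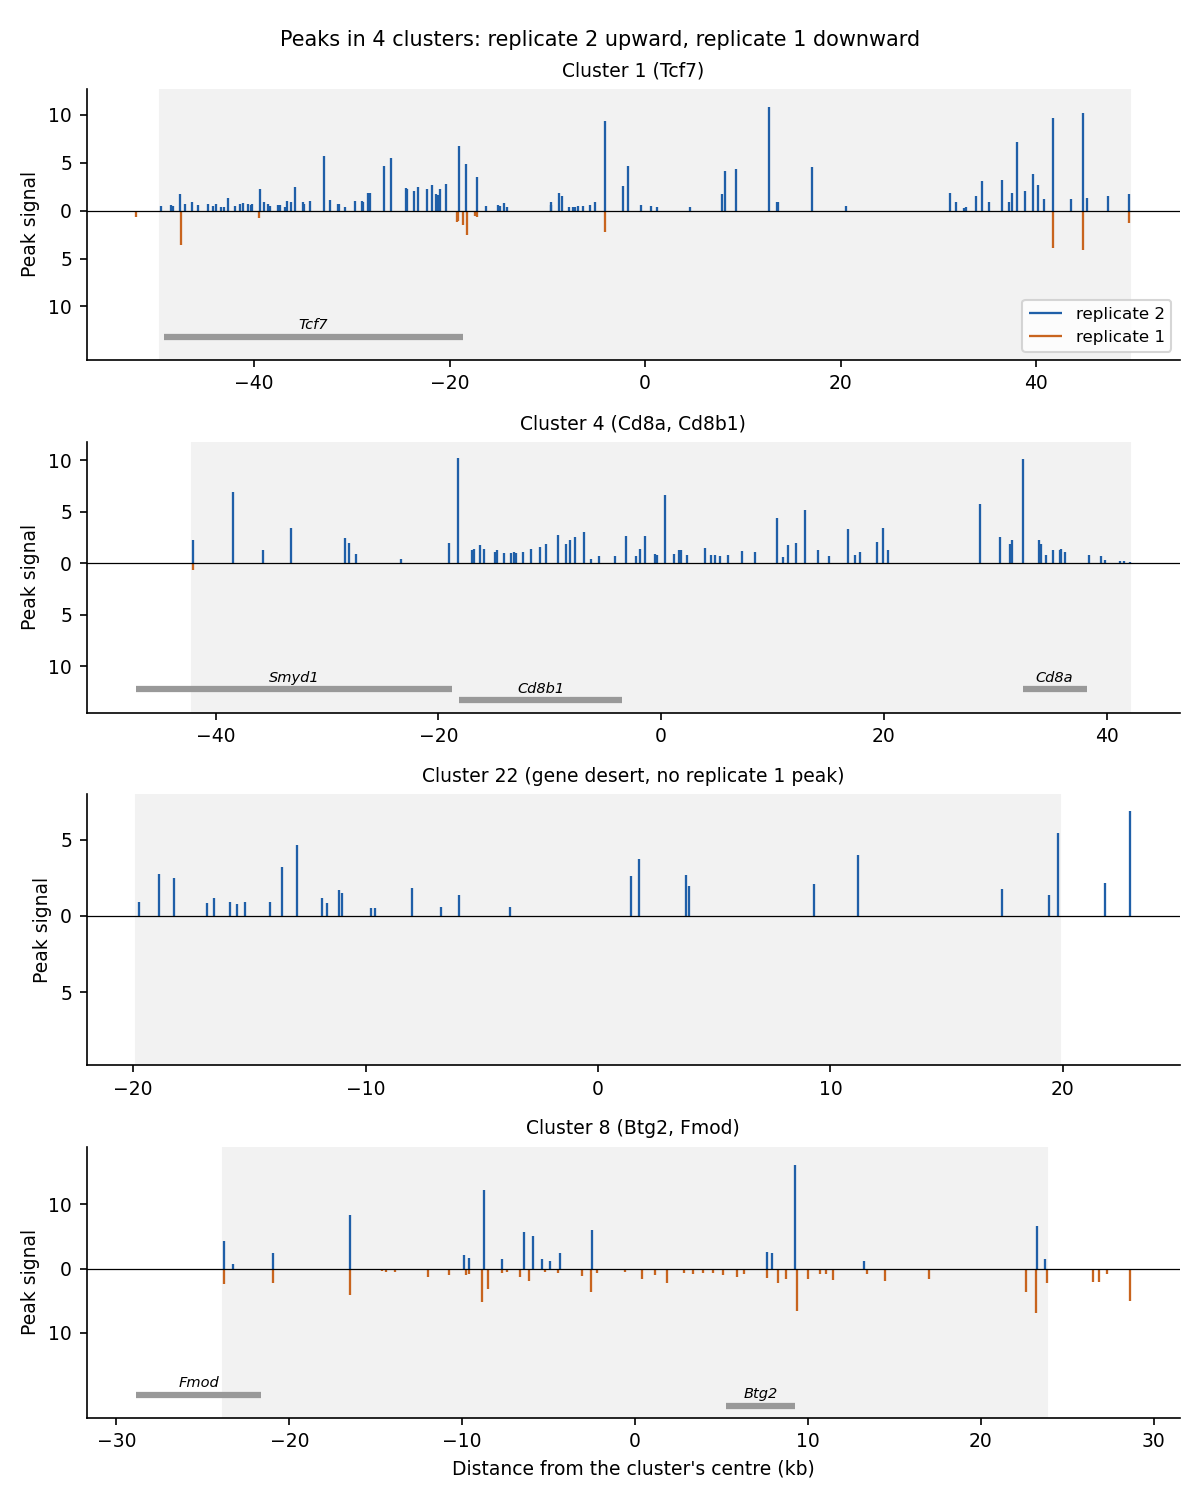
Peaks in and 5 kb around 4 clusters by distance from the cluster's centre (kb), with signal in deposited units on a linear axis, upward for the replicate 2-labelled library and downward for the replicate 1-labelled library. Grey shading is the span, grey bars are genes, and promoter peaks, which the clusters exclude, are drawn too. Replicate 1 has 8 distal peaks in the Tcf7 span, 1 in the Cd8 span, 0 in cluster 22 and 42 in the Btg2 span.

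Many genes of the T lineage lists stood at clusters. A gene was at a cluster when its body overlapped the span or its start was the nearest. Of 109 genes in 6 lists, 45 (41.3%) were at a cluster, beside 4.87% of all 21972 genes counted. The lists were drawn up with results of these data known, so their share is a description. By the same rule the replicate 1-labelled library had 1752 clusters, and 13 of the 109 genes (11.9%) were at one, beside 8.62% of all genes.

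Of the receptor and coreceptor genes, 9 of 16 were at a cluster of the replicate 2-labelled library and 0 at one of the replicate 1-labelled library. Their 7 clusters held 136 peaks against 9 replicate 1 distal peaks, and 5.88% of the 136 were overlapped. Besides Cd8a, Cd8b1 and Trac these were Cd2, an adhesion receptor gene (13 peaks against 3), Cd27, a costimulatory receptor gene (13 against 0), Cd247, the CD3 zeta chain gene (9 against 1), Cd3d and Cd3e, which share a cluster (7 against 1), and Cd6 (5 against 0). Cd4, Cd3g, Cd5, Cd28, Trbc1, Trbc2 and Trdc were at none.

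Of the T lineage transcription factor genes, 15 of 24 were at a cluster of the replicate 2-labelled library, and 3 at one of the replicate 1-labelled library. Their 26 clusters held 325 peaks against 64 replicate 1 distal peaks, 14.5% of the 325 were overlapped, and 9 clusters had no replicate 1 peak. Several of these genes had more than 1 cluster. Ets1, which encodes an ETS factor abundant in lymphocytes, had 5 with 41 peaks against 5. Some overlapped no gene body and lay 15.5, 41.5 and 168.6 kb from that of Ets1. The one at 41.5 kb lay 42.6 kb from Fli1, so its place at Ets1 rests on a small difference in distance. Lef1, the TCF1 relative, had 4 with 30 peaks against 1. Of those 4, 2 overlapped the gene body, and the others lay 130300 and 159690 bp from its start. Bcl11b, needed for T lineage commitment, had 2 clusters with 22 peaks against 1, and Runx1 had 2 with 16 against 3.

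Other members of the list spanned a wide range. Satb1, a chromatin organiser gene, had 20 peaks against 0, but with a mean signal of 0.357, far under the median cluster's 2.15. Ikzf1 and Ikzf3, Ikaros family genes, had 7 against 0 and 7 against 2. Fli1, an ETS factor gene, had 5 against 0. Gata3 was the nearest gene of a cluster of 5 peaks against 0, whose span lay 277110 bp from its start. By contrast Id2, an inhibitor of E proteins, had 7 peaks against 11, and all 7 were overlapped. Bcl6 had 18 peaks over 2 clusters against 10, and Foxo1 14 over 2 clusters against 13. At Bcl6 the cluster in the gene body held all 10 replicate 1 distal peaks, and the one 162394 bp from its start, with 9 peaks, held none.

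Thymocyte development was the T lineage list whose clusters had the highest share of peaks in both libraries. Of its 19 genes 6 were at a cluster of the replicate 2-labelled library and 7 at one of the replicate 1-labelled library. Their 7 clusters held 50 peaks against 33, and 20 of the 50 were overlapped. Nr4a1, an immediate early gene of receptor signalling, had 11 peaks against 16, the reverse of most T lineage genes. Bcl2l1, a survival gene of double-positive thymocytes, had 13 against 5, Bcl2l11, the proapoptotic BIM gene, 10 over 2 clusters against 4, and Nr4a3 6 against 3. Arpp21 had 5 against 1 and Dtx1, a NOTCH pathway gene, 5 against 4. Rag1, Rag2, Dntt and Ptcra, genes of receptor rearrangement and pre-receptor signalling, were at none.

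Of the T cell signalling genes, 8 of 20 were at a cluster of the replicate 2-labelled library and 2 at one of the replicate 1-labelled library. Their 9 clusters held 59 peaks against 16. Csk, an inhibitory kinase gene, had 12 against 3, and Rasgrp1, which links the receptor to RAS, had 11 over 2 clusters against 1. Lck, the coreceptor-bound kinase gene, had 6 against 1. Sla and Prkcq had 6 and 5, each against 0, and Plcg1 had 6 against 2. Ubash3a alone of the 8 had more in the replicate 1-labelled library, 6 against 8.

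Homing and adhesion genes were at a cluster of the replicate 2-labelled library in 7 of 14 cases and at one of the replicate 1-labelled library in 1 case. Their 7 clusters held 48 peaks against 12. Selplg, a selectin ligand gene, had 9 against 3, Ccr9, a thymocyte chemokine receptor gene, 7 against 1, and Cxcr4 7 against 2. Klf13 had 7 against 1, Ccr7 6 against 2, Itgb7 6 against 2 and Itga4 6 against 1. None of 16 effector and regulatory T cell genes, Foxp3 and Ifng among them, was at a cluster of either library.

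**Figure D3:**
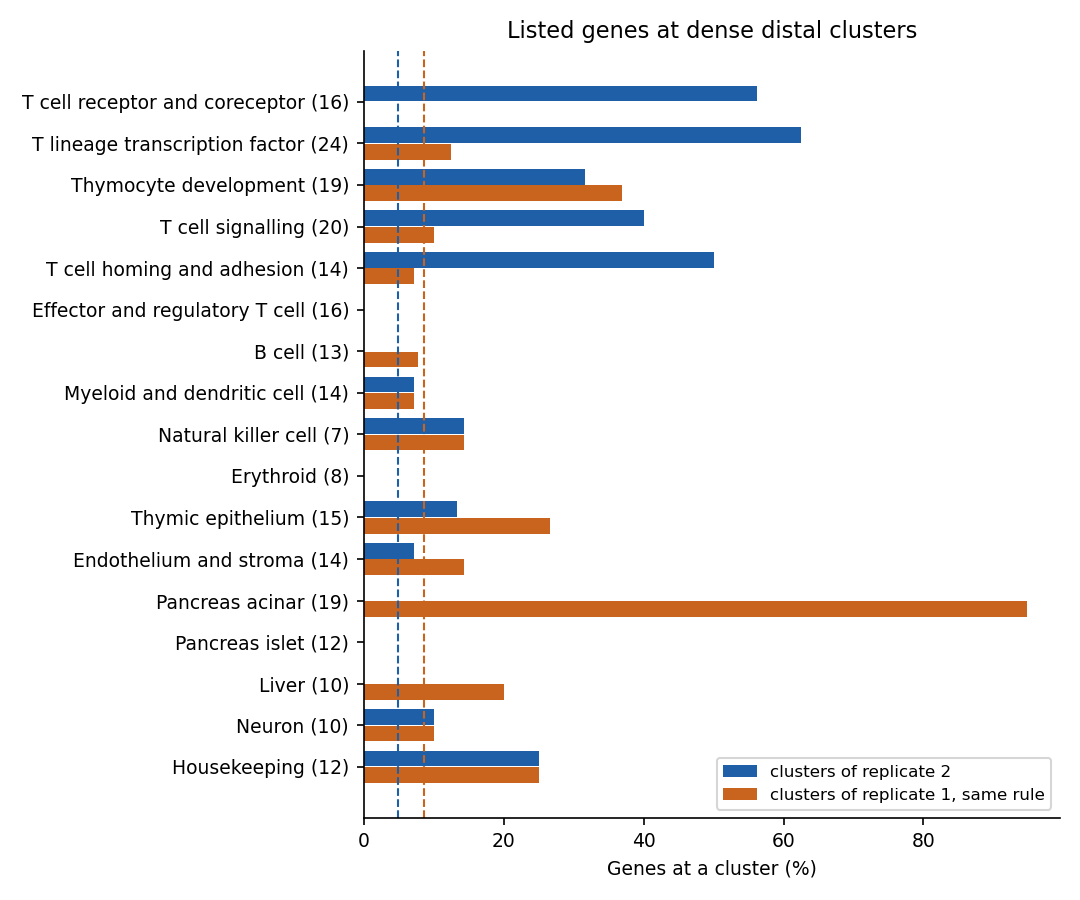
Percent of the genes of each of 17 lists (number of genes in brackets) at a cluster of the replicate 2-labelled library (blue, upper bar) and at a cluster of the replicate 1-labelled library found by the same rule (orange, lower bar). Dashed lines are the percent of all genes, 4.87 and 8.62. The transcription factor list stands at 15 of 24 genes against 3 of 24, and the acinar list at 0% against 94.7%.

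Of 122 genes in 10 lists of other cell types, 6 (4.92%) were at a cluster of the replicate 2-labelled library, beside 4.87% of all genes, and 30 (24.6%) at one of the replicate 1-labelled library, beside 8.62%. Of 13 B cell, 8 erythroid, 19 pancreas acinar, 12 islet and 10 liver genes none was, while 18 of the 19 acinar genes (94.7%) were at a cluster of the replicate 1-labelled library. Krt8 and Cldn4 were the 2 of 15 thymic epithelium genes at a cluster of the replicate 2-labelled library, Flt3 the 1 of 14 myeloid genes, Pecam1 the 1 of 14 endothelial and stromal genes and Rbfox3 the 1 of 10 neuron genes. Klrb1c, of 7 natural killer cell genes, was the nearest gene of 2 clusters, in which 10 of 14 peaks were overlapped by replicate 1. Of 12 housekeeping genes 3 were at a cluster, Actb and Ppia among them, and 70.0% of the 30 peaks in their clusters were overlapped.

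Over the 950 clusters, the replicate 1-labelled library overlapped 2217 of 7054 cluster peaks, 31.4% (interval 30.4 to 32.5). Of the distal peaks in no cluster it overlapped 53.6% (interval 53.0 to 54.2). The share was lower in larger groups, being 60.8% of single peaks, 52.0% in groups of 2, 46.7% in groups of 3, 38.7% in groups of 4, between 26.7% and 38.5% in groups of 5 to 10 and 20.4% in groups of more than 10. It was close on the 2 sides of the rule's threshold, 38.5% in groups of 5 and 38.7% in groups of 4. The same held the other way round. Of the 13460 peaks in the clusters of the replicate 1-labelled library, 22.7% were overlapped by the replicate 2-labelled library, beside 35.7% of its other distal peaks. A lower overlap within dense groups was thus seen in both libraries.

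Cluster peaks were not the weaker ones. Their median signal was 1.57, against 1.27 for other distal peaks. When all distal peaks were split into 5 classes of signal, the overlap in clusters was lower in each class, from 6.95% against 37.2% among the weakest to 62.2% against 82.0% among the strongest. Shared peaks gave a like order: the median ratio of the signal in the replicate 2-labelled library over that in the replicate 1-labelled library was 1.44 in clusters and 1.084 in other distal peaks, beside 1.33 over all shared peaks. The scaling of the signal is not given, so these ratios have meaning only beside each other.

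**Figure D4:**
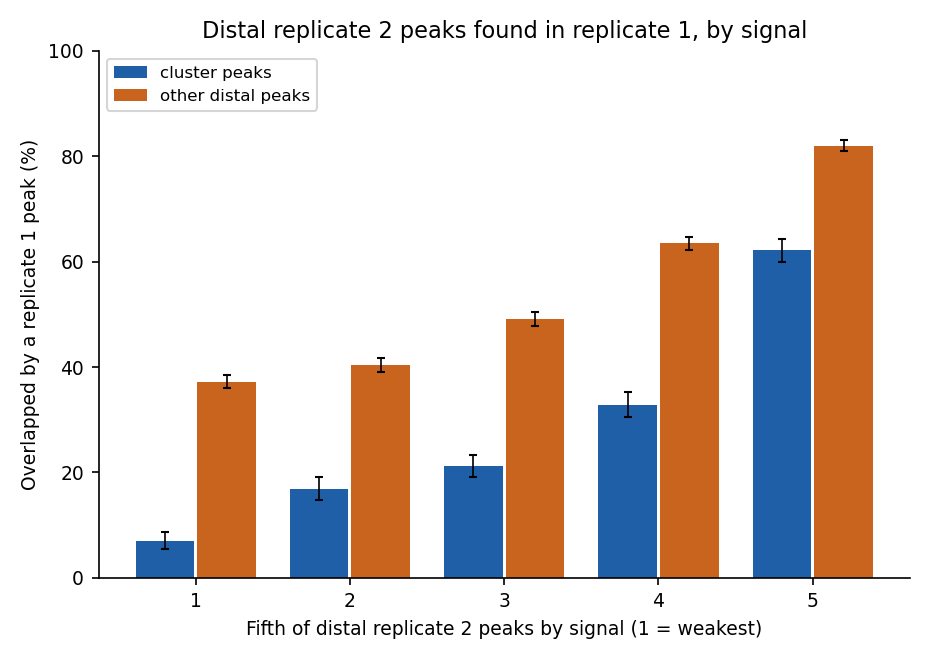
Percent of distal peaks of the replicate 2-labelled library overlapped by a replicate 1 peak, in 5 equal classes of signal from weakest to strongest, for cluster peaks (blue) and other distal peaks (orange). Bars are shares and lines are 95% Wilson intervals, which cover the counting of peaks only. Cluster peaks stand lower in each class, at 6.95% against 37.2% in the lowest and 62.2% against 82.0% in the highest.

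Weaker traces of replicate 1 signal gave the same order. The longer replicate 1 peak list overlapped 37.7% of cluster peaks and 60.5% of other distal peaks. An interval of its deposited FDR table, which lists only values under 0.05, lay in 40.2% of cluster peaks and 62.6% of others. After a move by 10 kb, only windows that met no peak of either library were kept. Of these, 3.80% of 6232 from clusters and 2.55% of 26685 others held an interval. The peaks in place were not filtered in this way, so the moved shares are low partly by construction. Of the 4837 cluster peaks with no replicate 1 peak, 12.8% held such an interval, against 19.4% of the other distal peaks with none. A footprint of the replicate 1-labelled library lay in 32.9% of cluster peaks and 55.4% of others. Footprints of the replicate 2-labelled library lay in 83.8% of cluster peaks and 93.0% of others.

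Per cluster, the span held between 0 and 42 replicate 1 distal peaks with a median of 2. More replicate 2 than replicate 1 distal peaks were found in 820 clusters, equal numbers in 48 and fewer in 82. The spans held 392.1 distal peaks per Mb in the replicate 2-labelled library and 168.3 in the replicate 1-labelled library. Genome-wide densities of the 2 libraries were 12.7 and 19.2 per Mb in the same order. Because replicate 2 peaks set the spans, the rule favours the higher replicate 2 counts and density. In 39 clusters every peak was overlapped, and in 179 none was. A cluster of the replicate 1-labelled library was met by 295 clusters (31.1% of the 950), and 296 of its 1752 clusters (16.9%) met one of these.

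**Figure D5:**
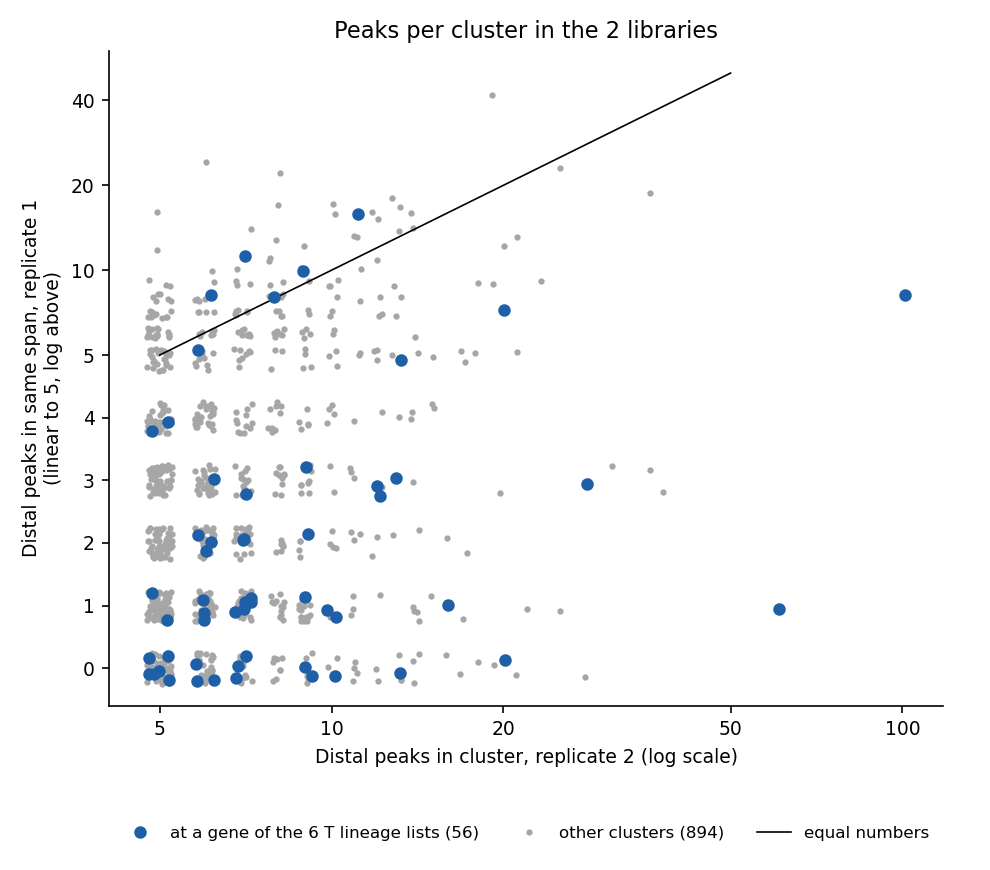
Distal peaks in each cluster in the replicate 2-labelled library (horizontal, log scale) and in the same span in the replicate 1-labelled library (vertical, linear to 5 and log above), with points spread slightly so that they do not hide each other. Blue points are the 56 clusters at a gene of the 6 T lineage lists, grey points the other 894, and the line marks equal numbers. Of the blue points 51 lie below the line, 4 above it and 1 on it. Spans were set by replicate 2 peaks, which favours points below the line.

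The 56 clusters at T lineage genes held 618 peaks, of which 15.9% (interval 13.2 to 18.9) were overlapped by replicate 1. In the other 894 clusters 32.9% (interval 31.8 to 34.1) of 6436 peaks were. Clusters outside the lists thus also stood under the 53.6% of distal peaks in no cluster. Of the 56, 13 (23.2%) had no replicate 1 peak, against 122 of the 894 (13.6%). The Tcf7 and Cd8 clusters held 101 and 61 of the 618 peaks, with 7 and 1 overlapped. By cluster, the median share overlapped was 14.3% in the 56 and 30% in the others. The lists were drawn up with results of these data known. The intervals treat peaks of a cluster as independent, and the 2 sets were not matched for cluster size.

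In 135 clusters (14.2%) the span held no replicate 1 peak of any kind, beside 26.3% of the joined groups of 2 to 4 peaks, whose spans are shorter. The share depended on the joining gap, at 148 of 501 clusters (29.5%) with 5 kb and 95 of 1604 (5.92%) with 25 kb. In 89 of the 135 the longer replicate 1 list had none either. Their median mean signal was 1.499, against 2.27 for clusters with a replicate 1 peak. The one with the highest summed signal, cluster 22, at chr12:107117601-107157320, had 28 peaks that summed to 53.6 and 67 footprints, against no footprint in the replicate 1-labelled library. It lies in a stretch of 1411 kb between Vrk1 and 3110018I06Rik with no gene body of the kinds counted, in which the replicate 2-labelled library had 69 peaks and the replicate 1-labelled library had 7. Long noncoding RNA genes Gm16084 and Gm16085 are annotated across it. Bcl11b, of the T lineage lists, lies beyond 3110018I06Rik at chr12:107910403-108003602. It is not the nearest gene, so cluster 22 is not counted at Bcl11b, and which gene the cluster acts on was not tested. The others that led this group were in Prex1, a RAC exchange factor gene, with 21 peaks, Tbc1d22a with 13, Ppp1r16b with 10, and Colq, a collagen-tail subunit gene of acetylcholinesterase, with 8. In 3 of the leading 100 clusters no replicate 1 peak was found.

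At the other end, the 5 highest-ranked clusters with every peak overlapped were those at Ctc1, a telomere maintenance gene (8 peaks, cluster 21), Btn1a1 (11 peaks), Bcl6 (9 peaks), Cfap126 (8 peaks) and near Bahcc1 (6 peaks). Of these the Ctc1 span held 7 tRNA genes, the Btn1a1 span 16 and the Cfap126 span 5. Over all clusters, 24 spans held 116 tRNA genes, and 78.3% of their 180 peaks were overlapped, against 30.2% in the other 926 clusters. Of cluster peaks within 1 kb of a tRNA gene 86.9% were overlapped, and of other distal peaks within 1 kb of one 85.6%. None of the 24 lacked a replicate 1 peak.

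Among the 82 clusters with more distal peaks in the replicate 1-labelled library were those at Tmem44, with 6 against 24, and at Elk3, an ETS factor gene, with 8 against 22. These genes were chosen after their values were seen.

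Summed signal and number of peaks picked different clusters. Among the 10 clusters with the most peaks were one of 38 peaks, whose nearest gene start, that of Psmg1, lay 84398 bp away, with 3 replicate 1 distal peaks, and one at Zbp1 and Pmepa1 with 31 against 3. Another, near Trpm1, had 25 peaks against 1 but ranked 884, with a mean signal of 0.245. In all, 51 clusters with 460 peaks had a mean signal under 1, and 24 of them had no replicate 1 peak. The lowest mean, 0.166, was that of 17 peaks at Atp13a1, with none in the replicate 1-labelled library, a gene named after its values were seen.

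The letters of 17 transcription factor motifs were counted on both strands in windows of 200 bp on the peak midpoints. Only exact matches counted, so sites with other letters were missed. Moved windows are distal windows moved by 10 kb that met no peak of either library. The clusters differed most from other distal peaks in the letters of CTCF, the insulator protein, counted as CCA, any 2 bases, AGG, any 1 base and GGC. These were in 5.70% of cluster windows (interval 5.18 to 6.26) and 11.7% of other distal windows (interval 11.4 to 12.1), against 0.173% of windows moved by 10 kb. Within clusters they were in 1.63% of the windows not overlapped by replicate 1 and 14.6% of those overlapped. Outside clusters they were in 3.15% of the distal windows not overlapped, beside the 11.7% of all other distal windows. CTCF letters were thus fewer in clusters. Both inside and outside clusters they were rarer at peaks not overlapped by replicate 1.

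The ETS letters CAGGAAG were in 18.4% of cluster windows and 17.2% of other distal windows, against 9.58% of the distal windows of the replicate 1-labelled library and 7.71% of moved windows. The RUNX letters TGTGGTT gave 7.70%, 8.02%, 4.55% and 5.26% in the same order. Both were more frequent in cluster windows not overlapped by replicate 1 than in those overlapped, at 21.1% against 12.3% for ETS and 9.06% against 4.74% for RUNX. Both in 1 window were found in 1.88% of the cluster windows not overlapped and 0.316% of those overlapped. Outside clusters the distal windows not overlapped held ETS letters in 24.8% and RUNX letters in 11.5%, more than the cluster windows not overlapped.

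The E protein letters CAGCTG and CAGGTG were in 20.7% and 27.4% of cluster windows, against 9.57% and 14.8% of moved windows, and in 20.1% and 25.3% of replicate 1 distal windows. The SP/KLF letters GGGCGG were in 12.2% of cluster windows, in 17.7% of those overlapped and 9.76% of those not. HNF1 (GTTAATNA) was in 0.680% of cluster windows, against 2.12% of replicate 1 distal windows and 1.80% of moved windows, and FOXA (TGTTTAC) in 2.32%, 4.03% and 2.48%. The GATA factor letters AGATAA were in 6.55%, 10.3% and 10.5%, and the TCF/LEF letters TCAAAG in 12.0%, 12.9% and 14.1%. For the other 7 motifs the shares in cluster windows and other distal windows were 17.8% and 18.3% for Ikaros (TGGGAA) and 12.0% and 10.7% for ROR. They were 6.38% and 6.10% for AP-1 (TGANTCA), and 2.06% and 2.16% for IRF (GAAA, any 2 bases, GAAA). They were 0.936% and 0.969% for NF-kB (GGGA, any 1 base, TTCC), 1.67% and 1.73% for HNF4 (CAAAG, any 1 base, CCA), which was in 1.46% of moved windows, and 1.46% and 1.23% for NR5A (TCAAGG, any 1 base, CA). Cluster windows had a GC content of 53.8%, other distal windows 52.0%, replicate 1 distal windows 50.5% and moved windows 45.5%, which stands beside each of these shares and whose part was not tested.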

How the data were processed

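DNase-seq was analysed in 2 thymus libraries, on assembly mm10 per the labels. The deposited peak lists give the signal of each peak in column 7, and no source used here gives its scaling. Column 5 of the deposited FDR tables is a false discovery rate, treated here as a q-value, and only values under 0.05 are listed. Column 5 of the deposited footprint lists is a score of 0.01 in every row, and it was not used. Aligner, callers and thresholds: not given in the sources used here. Each library has 2 peak lists, of which the shorter was used (60644 peaks in the replicate 2-labelled library and 85367 in the replicate 1-labelled library). Depth is unknown, so no limit of detection is given.

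Transcript starts were the 132666 of GENCODE vM21, genes the protein-coding and receptor constant genes, and sequence that of GRCm38. An overlap of at least 1 bp made a peak shared. Overlapping peaks within a list were counted as deposited. Further copies were searched with blastn 2.17.0 in the leading 20 clusters alone. Tables were made with Python 3.11.15, pandas 2.3.3 and pysam 0.24.0, and the joining and overlap steps were tested on simulated intervals. Named genes were those at the leading 20 clusters, those of the T lineage lists, the 10 clusters with the most peaks, the 5 strongest with no replicate 1 peak, the 5 most overlapped of the leading 100, and examples of the other lists. The members, the 17 gene lists (244 genes, of which Amy2b was not found in the annotation under that name) and the motifs were chosen with earlier results of these data known. A few genes that the rule for named genes covers are not reported here.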

Additional observations from a re-analysis of the deposited data

How the results depend on the processing

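The overlap of cluster peaks with the other library was lower than that of other distal peaks under each of the 15 alternatives that gave both. The values below are, in order, the number of clusters (950), the overlap of cluster peaks (31.4%) and of other distal peaks (53.6%), the clusters without a replicate 1 peak (135) and the T lineage genes at a cluster (41.3%, all genes 4.87%). A joining gap of 5 kb gave 501, 26.0%, 51.8%, 148 and 21.1% (all genes 2.30%), and 1 of 25 kb gave 1604, 37.7%, 56.1%, 95 and 55.0% (all genes 10.9%). Requiring 4 peaks gave 1687, 33.6%, 55.4%, 290 and 53.2% (all genes 7.95%), and 8 peaks gave 272, 26.3%, 51.4%, 35 and 18.3% (all genes 1.57%). A distance of 500 bp from starts gave 1188, 34.6%, 54.6%, 132 and 48.6% (all genes 6.41%), and 2500 bp gave 669, 29.6%, 52.4%, 127 and 24.8% (all genes 3.21%). Starts of protein-coding transcripts alone gave 1220, 33.6%, 54.6%, 155 and 47.7% (all genes 6.39%). The longer replicate 2 list gave 2201, 25.4%, 41.4%, 390 and 66.1% (all genes 10.2%). The stronger 50% of peaks gave 203, 41.0%, 58.5%, 30 and 15.6% (all genes 1.17%). With the clusters kept, the longer replicate 1 list gave 37.7% and 60.5% overlap and 89 clusters without a peak, and an overlap of at least 50% of the peak gave 27.9% and 51.2%. Placing genes by body overlap alone gave 37.6% of T lineage genes (all genes 3.54%), and by nearest start alone 38.5% (all genes 4.34%). Chosen after seeing the data, merging overlapping peaks gave 907, 31.7%, 53.7%, 129 and 41.3% (all genes 4.67%). Adding tRNA gene starts, also chosen then, gave 928, 30.2%, 53.5%, 135 and 41.3% (all genes 4.72%). Leaving out weak clusters, also chosen then, gave 899, 32.9%, 53.6%, 111 and 40.4% (all genes 4.63%). Ranking by number of peaks kept 45% of the leading 20 clusters, and ranking by peaks per 10 kb kept 0%.

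Without replicate 2, the rule on the replicate 1-labelled library gave 1752 clusters, 22.7% and 35.7% overlap with replicate 2, 431 clusters with no replicate 2 peak and 11.9% of T lineage genes (all genes 8.62%). Without replicate 1 the clusters are the same and no overlap can be given. No paired analysis was possible because there is 1 group. Which peaks are shared depends on how deeply each library was sequenced, which is unknown, and the cause of each shift was not tested.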
